A study of Sus scrofa with 9 samples.

Results

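Porcine granulosa cells (PGCs) exposed to 300 μM H2O2 (MOS) were compared with PGCs exposed to 100 μM H2O2 (LOS), to ask which microRNAs (miRNAs) separate the 2 doses of oxidative stress (OS), and which rise at the lower dose and are lost at the higher one. The comparison used 6 of the 9 small-RNA libraries, 3 per dose, and the 3 libraries of untreated cells (CON) served as the reference level. All cells were primary granulosa cells from ovaries of Landrace x Yorkshire crossbred sows, grown in medium with serum, to which the H2O2 was added, and all groups were collected at 12 h. No label says that the 3 libraries of a group came from separate animals or cultures, so p-values measure only the spread between these libraries, which may be technical. The table lists 1345 entries, and the 733 of them that reached 10 in 3 or more of the 6 LOS and MOS libraries were compared on log2 of the count plus 1. An entry is 1 sequence with its name, and its unit throughout is the normalized count that the authors deposited.

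A miRNA is cut from a hairpin precursor, and either arm of the hairpin, the 5p or the 3p, can yield a mature strand. The mature strand guides a silencing complex to messenger RNAs, mostly through pairing of its seed, bases 2 to 8. Granulosa cells nourish the oocyte and make steroid hormones, and their death under OS accompanies follicular atresia. H2O2 crosses membranes and oxidizes proteins, lipids and nucleic acids, and the same agent can act as a signal at a low dose and as a toxin at a high one.

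The sequences of the entries that carry the comparison are given as deposited, 5′ to 3′, with the seed in capitals. In the names, L and R give how many bases the read gains (+) or lacks (-) at its 5′ (L) or 3′ (R) end, ss marks a substitution, p5 or p3 marks a predicted arm, and PC marks a predicted candidate. The first 5 rose at 100 μM and were lower at 300 μM, and no 2 of them share a seed.
hsa-miR-222-5p_L+2R-1: gGCTCAGTagccagtgtagatcc
hsa-miR-27a-5p: aGGGCTTAgctgcttgtgagca
ssc-miR-96-5p: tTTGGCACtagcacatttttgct
ssc-miR-183_R-1: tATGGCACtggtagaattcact
ssc-miR-139-5p_R+1: tCTACAGTgcacgtgtctccagt
Next come miR-222 and miR-221, which share a seed and were higher at 300 μM, with the pair of seeds that was called in both directions, that of miR-146 and that of miR-34 and miR-449.
ssc-miR-222: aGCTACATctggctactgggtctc
ssc-miR-221-3p: aGCTACATtgtctgctgggttt
ssc-miR-146a-5p: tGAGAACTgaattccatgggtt
ssc-miR-146b_R+3: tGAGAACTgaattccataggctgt
hsa-miR-449a: tGGCAGTGtattgttagctggt
ssc-miR-34c: aGGCAGTGtagttagctgattgc
mmu-miR-34b-5p: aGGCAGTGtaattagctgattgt
ssc-miR-34a: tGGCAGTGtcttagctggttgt
These entries were lower at 300 μM. The pairs miR-19a and miR-19b, miR-181d and miR-181c, and miR-21 and miR-590 each share a seed.
ssc-miR-21_R+1: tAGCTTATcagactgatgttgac
hsa-miR-590-5p_1ss19GA: gAGCTTATtcataaaagtacag
ssc-miR-202-5p: tTCCTATGcatatacttcttt
hsa-miR-31-3p_R+1: tGCTATGCcaacatattgccatc
ssc-miR-19b: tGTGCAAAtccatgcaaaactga
ssc-miR-19a: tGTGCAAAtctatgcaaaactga
ssc-miR-181d-5p: aACATTCAttgttgtcggtgggtt
ssc-miR-181c_R+1: aACATTCAacctgtcggtgagtt
The last 4 rose at 300 μM by 4.17 or more on the log2 scale, or from values at or near 0 at 100 μM.
hsa-mir-4787-p3_1ss4GC: cGTCGCGGgggtggcggcg
ssc-mir-4332-p5_1ss18CA: cGGCCGCCgccgggcgcatt
mmu-miR-6240_R-6_1ss1CA: aCAAAGCAtcgcgaaggccc
PC-5p-4753_459: tCCTCCCGcccccccgcctccc
Shorter names without the suffix are used below, and each refers to the sequence above where one is given.

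LOS libraries were deeper than MOS libraries, at 12853437 to 16764959 reads against 7793727 to 9321692, as estimated from the step between values. Deposited totals were also higher in LOS, at 5701572 to 6098582 against 4967112 to 5117859, and miR-21 took a larger share of them in LOS, given below. Log2 values of LOS libraries correlated at 0.988 to 0.990 with each other, those of MOS libraries at 0.957 to 0.968, and those of LOS with MOS at 0.902 to 0.941. MOS library 3 lay nearer to LOS (0.929 to 0.941) than the other MOS libraries did. A value of 0 stands for fewer than about 4 reads. Abundant granulosa miRNAs were present, with miR-21 first, miR-10b at 70614, 86071 and 79844 and miR-202-5p at 3948, 3653 and 3966 in LOS. miR-224 was at 16.3, 15.3 and 4.74 in LOS and 17.5, 21.7 and 7.58 in MOS, and miR-383 was not among the entries tested.

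At the higher dose 126 entries rose and 58 fell relative to the lower dose (limma, adjusted p under 0.05), 25.1% of the 733 tested, with 17.2% higher and 7.91% lower. Every one of these 184 entries had its 3 MOS values entirely above or entirely below its 3 LOS values, a separation that 304 entries (41.5%) showed in all. Among the rises, 100 were at least 2-fold, and among the falls 20. Of the 126 rises, 68 reached the limit of 10 only through MOS and had to differ. Among the 653 entries at 10 or more in at least 1 library of each dose, 58 rose and 57 fell. The falls came from abundant miRNAs, with a median of 948 over the 6 libraries, and spanned log2 fold changes from -0.35 to -2.15. The rises had a median of 36.8, and among those at 10 or more in every LOS library they reached a log2 fold change of 6.08. On the deposited scale the median log2 fold change of all 733 entries was 0.09, but with every library set to the same total it was 0.34, and then 195 entries rose and 31 fell of 739 tested. No call changed sign in any alternative that kept single entries. Of the 184 calls, 77 (64 higher and 13 lower) held whichever single LOS or MOS library was left out, and for entries described below with their values a library whose omission ended the call is named.

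**Figure D1:**
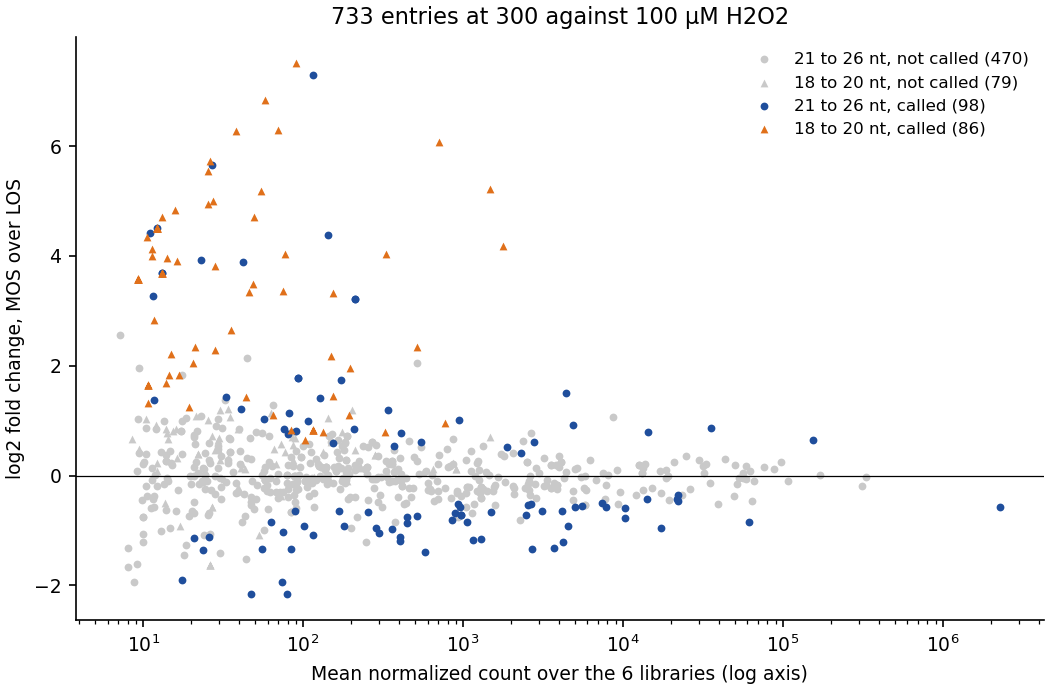
Log2 fold change at 300 over 100 μM H2O2 for each of the 733 entries, against the mean normalized count of the 6 libraries (log axis), with orange triangles for called entries of 18 to 20 nt, blue circles for called entries of 21 to 26 nt and grey for the rest. All 86 orange triangles lie above 0, and the 58 falls are all blue circles.

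At 100 μM 36 entries (4.91%) were called against CON, 31 higher (4.23%) and 5 lower (0.682%). Of the 31 rises, 5 were then lower at 300 μM (0.682% of the 733), 6 were higher still and 20 showed no call between the doses. Both comparisons use the same 3 LOS libraries, so a LOS value that is high by chance moves both, and the count of 5 is a description. The 5 entries were miR-222-5p, miR-27a-5p, miR-96-5p, miR-183 and miR-139-5p. No entry was called in the reverse order, a fall at 100 μM with a higher value at 300 μM, and none of the 5 falls at 100 μM was called between doses. At an unadjusted p under 0.05 in both comparisons 13 entries showed it. Among the 26 alternatives the count was 0 in 20, 1 in 5 (without LOS library 1, with 10 added to each value, with a lower limit of 50, with LOS against CON on its own filter, and with voom on estimated reads, which is limma with weights for the precision of counts) and 2 without the trend. Without regard to the test, the LOS values lay entirely above CON in 94 entries (12.8%) and entirely below in 60 (8.19%), and 37 entries (5.05%) had all 3 LOS values above every CON and every MOS value, while 23 (3.14%) had them below. At 300 μM 135 entries were called above CON (18.4%) and 37 below (5.05%).

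miR-222-5p, the less abundant strand of the miR-222 hairpin, had the largest fold rise at 100 μM among the 5. Its normalized counts were 49.3, 49.1 and 55.9 in CON, 377, 353 and 404 in LOS and 178, 224 and 182 in MOS. All LOS libraries lay above all MOS libraries, and all MOS libraries lay above all CON libraries. The mean was 7.35-fold that of CON at 100 μM and 3.79-fold at 300 μM, so that 56.1% of the rise was lost. The log2 fold change was 2.85 (SE 0.09) for LOS over CON (adjusted p = 0.000373), -0.96 (SE 0.17) for MOS over LOS (adjusted p = 0.00569) and 1.90 (SE 0.19) for MOS over CON (adjusted p = 0.000377).

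miR-27a-5p, the minor strand of a hairpin whose gene lies beside those of miR-23a and miR-24-1, stood at 144, 167 and 159 in CON and at 526, 599 and 529.5 in LOS. Its MOS values were 249, 257 and 251, nearly equal in the 3 libraries and between the other groups without overlap. The rise at 100 μM was 3.52-fold (log2 1.81, SE 0.09, adjusted p = 0.000731), and 75.7% of it was lost at 300 μM (log2 -1.12, SE 0.14, adjusted p = 0.00136). What remained was above CON (log2 0.69, SE 0.15, adjusted p = 0.0171). miR-27a-5p and miR-222-5p met both criteria in all 26 alternatives run.

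miR-96-5p and miR-183 come from 1 gene cluster with miR-182, which is known for its expression in sensory cells and for targeting FOXO transcripts. miR-96-5p was at 217, 154 and 215 in CON, 403, 466 and 566 in LOS and 237, 245 and 237 in MOS. miR-183 was at 329, 257 and 276 in CON, 510.1, 697 and 524 in LOS and 287, 373 and 291 in MOS. For both, all LOS values lay above all others, and the MOS values of miR-183 overlapped those of CON. At 300 μM the log2 fold change over LOS was -0.98 (SE 0.17) for miR-96-5p (adjusted p = 0.00569) and -0.86 (SE 0.19) for miR-183 (adjusted p = 0.0153). At 300 μM neither was called against CON, with log2 fold changes of 0.31 (SE 0.19) and 0.14 (SE 0.18) and adjusted p of 0.276 and 0.622. miR-182, the third member, rose at 100 μM too (555, 440.2 and 482 in CON, 711, 813 and 749.7 in LOS) but its MOS values of 605, 697 and 399 were spread widely, and the difference between doses was not called (log2 -0.45, SE 0.22, adjusted p = 0.185).

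miR-139-5p, whose gene lies in an intron of a phosphodiesterase gene in human, showed the smallest fold rise of the 5. Its values were 425, 435 and 415 in CON, 615, 727 and 599 in LOS and 400.3, 333 and 436 in MOS, and the MOS and CON ranges overlapped. The log2 fold change was 0.60 (SE 0.08) at 100 μM over CON (adjusted p = 0.0331) and -0.73 (SE 0.17) at 300 over 100 μM (adjusted p = 0.0162). Its opposite strand, miR-139-3p, was at 10.1, 7.14 and 10.8 in CON, 38.1, 24.6 and 32.3 in LOS and 22.4, 14.02 and 20.6 in MOS. It was called above CON at 100 μM (adjusted p = 0.0329) and not between doses (adjusted p = 0.142). The call between doses was lost for miR-139-5p without LOS library 1, 2 or 3 or MOS library 2, and for miR-183 without LOS library 2 or 3. miR-183, miR-96-5p and miR-139-5p met both criteria in 17, 18 and 13 of the 26 alternatives. Leaving out CON library 2 or 3, or LOS library 1 or 3, left miR-222-5p and miR-27a-5p alone on the list, leaving out CON library 1 or LOS library 2 left these with miR-24-1-5p or miR-362, and leaving out MOS library 3 brought it to 9.

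**Figure D2:**
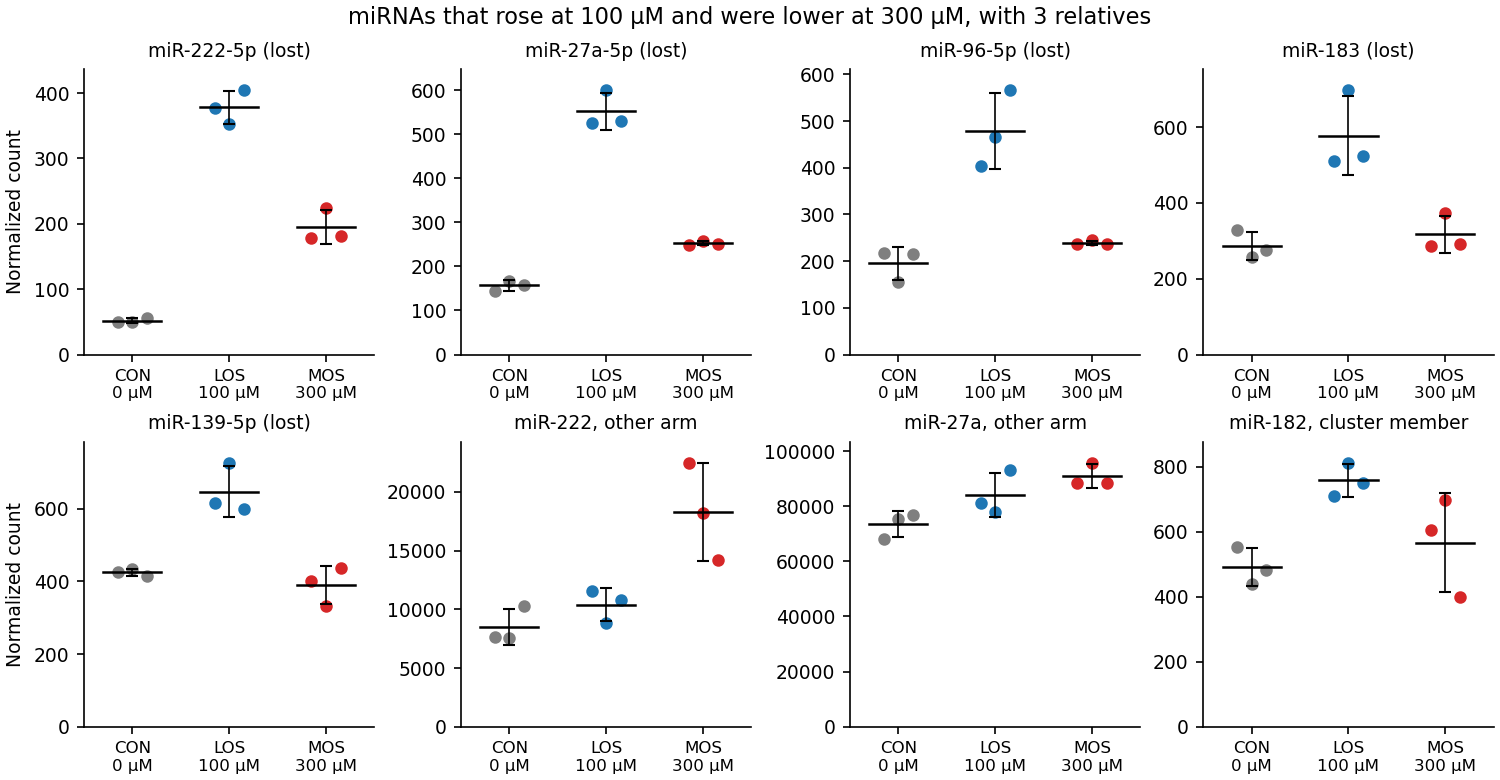
Normalized counts per library (points), group means (bars) and SD (whiskers, n = 3) for the 5 entries that rose at 100 μM and were lower at 300 μM, with the other arms of miR-222 and miR-27a and with miR-182. The LOS points of the 5 stand above all other points in their panels, while miR-222 has its highest points in MOS.

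Other entries came near this pattern and were picked after their values were seen. miR-132, a gonadotropin-responsive miRNA of granulosa cells, was at 1860.5, 1809.9 and 1683 in CON, 2767, 2938 and 2782 in LOS and 2294, 1788 and 1023 in MOS. The 3 LOS values were above the others, and MOS library 3 was the lowest of all, and the difference between doses was not called (adjusted p = 0.0714). miR-29b-1-5p (LOS 31.3, 33.9 and 30.4, MOS 14.96, 7.65 and 26.004) and miR-194a (LOS 241, 239 and 238, MOS 172, 171 and 206) also kept LOS above MOS without overlap, with adjusted p of 0.113 and 0.122 between doses. miR-212, which shares its gene cluster with miR-132, was at 502.7, 539 and 528 in LOS and 552, 475 and 238 in MOS, ranges that overlapped.

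miR-192, miR-194 and miR-215, known from liver and gut and as p53-responsive, rose at 100 μM and stayed above CON at 300 μM. miR-192 was at 153, 131 and 142 in CON, 416, 484 and 415 in LOS and 671, 808 and 464 in MOS, and LOS and MOS overlapped. miR-215, which shares the miR-192 seed, was at 16.4, 5.36 and 8.12 in CON, 152.4, 179 and 135 in LOS and 157, 191 and 173 in MOS. Both were called above CON at each dose and not between doses, with log2 fold changes of 0.53 (SE 0.22) and 0.17 (SE 0.19) and adjusted p of 0.128 and 0.571. miR-192 was called higher at 300 than at 100 μM with equal totals (log2 0.77, adjusted p = 0.0378), with voom and without MOS library 3. miR-141-3p, an epithelial miRNA of the miR-200 family, rose from 7.48 ± 4.56 in CON to 74.03 ± 10.3 in LOS and stood at 106 ± 38.1 in MOS (mean ± SD, n = 3). Of the 20 rises with no call between doses, 8 were called above CON at 300 μM as well and 12 were not. The 6 that were higher still at 300 μM were miR-1248, 3 entries named miR-6240, 1 named miR-4332 and 1 named miR-4485, and all 6 were called above CON there. The call of miR-1248 between doses was lost without LOS library 1, 2 or 3 or MOS library 1 or 2.

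Falls at 300 μM included miRNAs that granulosa cells hold in quantity. miR-21, an anti-apoptotic miRNA of these cells and the most abundant entry, fell by 0.57 on the log2 scale (SE 0.09, adjusted p = 0.00472), with all MOS libraries below all LOS and CON libraries. It took 44.8, 45.3 and 46.3% of the total in LOS and 38.0, 34.99 and 35.4% in MOS. The call was lost without MOS library 2 (adjusted p = 0.0574). miR-590-5p, with the same seed, was at 413, 387 and 387 in LOS and 185, 139 and 273 in MOS (log2 -1.04, SE 0.25, adjusted p = 0.0208), and its call was lost without LOS library 1, 2 or 3 or MOS library 2. miR-202-5p, a gonad-restricted miRNA, was at 3948, 3653 and 3966 in LOS and 1662, 1781 and 1188 in MOS, less than any LOS or CON value. Its log2 fold change was -1.34 (SE 0.17, adjusted p = 0.00146), and its opposite strand miR-202-3p gave -1.14 (SE 0.31, adjusted p = 0.0324) at 29.9, 34.8 and 22.8 in LOS and 12.5, 10.2 and 15.2 in MOS, a call that was lost without LOS library 1, 2 or 3 or MOS library 1 or 2, with equal totals, with voom, with no lower limit, with a spread per group and with all 9 libraries in one fit. miR-10b, encoded within a HOX gene cluster, was at 70614, 86071 and 79844 in LOS and 40122, 51882 and 39694 in MOS (log2 -0.85, SE 0.14, adjusted p = 0.00541).

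miR-31-3p showed the smallest adjusted p of the falls. Its counts were 5928, 5902 and 5845 in LOS, close to the CON values of 5696, 5809 and 5713, and 2354, 2508 and 2834 in MOS. The 6 LOS and CON values lay within a narrow band and the 3 MOS values far below it, with a log2 fold change of -1.20 (SE 0.12, adjusted p = 0.000556). The major arm, miR-31, was at 24563, 26522 and 27784 in LOS and 24943, 18586 and 18520.0 in MOS, which overlapped (log2 -0.36, SE 0.14, adjusted p = 0.113). The ratio of miR-31 to miR-31-3p was 4.46 ± 0.31 in LOS and 8.18 ± 2.14 in MOS, without overlap.

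miR-19b and miR-19a, members of the miR-17-92 cluster, which is known for promoting cell survival, both fell. miR-19b was at 4972, 4211 and 6615 in LOS and 2622, 1772 and 1929 in MOS, and miR-19a at 1474, 1327 and 1969 in LOS and 964, 583 and 589 in MOS. The groups did not overlap, and the log2 fold changes were -1.32 (SE 0.21) and -1.18 (SE 0.24), with adjusted p of 0.00522 and 0.0121. Across the list of the cluster, its paralogs and miR-92b, 3 of 27 tested members fell and 1 rose, beside 7.91% lower and 17.2% higher of all entries. The other fall was the minor strand miR-20a-3p. None of the 27 passed the lower limit only through MOS, and of the 659 entries that did not, 8.80% rose and 8.80% fell. The balance of the list turned with the setting, to 5 falls and 12 rises without MOS library 3 (median from -0.05 to 0.26) and to 3 falls and 4 rises with equal totals. Over all 733 entries the falls and rises were 122 and 199 without MOS library 3 and 31 and 189 with equal totals. The call of miR-19a was lost without LOS library 3 or MOS library 2, and that of miR-20a-3p without LOS library 1, 2 or 3 or MOS library 2. The rise was a 20 nt form of miR-92b (55.1, 44.9 and 54.1 in LOS, 253, 348 and 146.3 in MOS). It shares the seed of miR-92a but is not a gene of the cluster.

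Of the 8 tested miR-181 entries 3 fell and none rose, beside 7.91% lower and 17.2% higher of all entries. At an unadjusted p under 0.05 they held 5 falls and 0 rises, beside 95 and 173 of all 733 entries. With voom they held 1 and 0, beside 30 and 176 of all 733. None of the 8 passed the lower limit only through MOS, and of the 659 entries that did not, 8.80% rose and 8.80% fell. miR-181d was at 1685, 1747 and 1895 in LOS and 775, 664 and 999 in MOS (log2 -1.15, SE 0.17, adjusted p = 0.00366), and miR-181c, its neighbour in the genome, at 3523, 3697 and 4118 in LOS and 2131, 2556 and 2551 in MOS (log2 -0.65, SE 0.13, adjusted p = 0.0112). miR-181b fell by 0.52 on the log2 scale. The most abundant member, miR-181a, was at 8492, 8945 and 8855 in LOS and 11218, 10769 and 6767 in MOS, with MOS library 3 below and the others above LOS (adjusted p = 0.781). Both arms of miR-145, a smooth muscle and follicle miRNA, fell as well (-0.95, SE 0.27, and -0.64, SE 0.15), as did miR-140-5p (-0.77, SE 0.13), miR-30d (-0.42, SE 0.10), miR-365-3p (-0.42, SE 0.09), miR-26b (-0.35, SE 0.09) and both arms of miR-28 (-0.56, SE 0.13, and -0.56, SE 0.12), with adjusted p from 0.00569 to 0.0353. With equal totals miR-181b and these, other than miR-140-5p, kept their direction and lost the call. The call of miR-140-5p held whichever library was left out. Those of miR-181b, miR-30d and miR-145-3p were lost without LOS library 1, 2 or 3 or MOS library 2, those of miR-145-5p and miR-26b without these or MOS library 1, that of miR-365-3p without LOS library 1, 2 or 3, those of miR-28-5p without LOS library 1 or 2 or MOS library 2 and of miR-28-3p without LOS library 2 or 3, and that of miR-181c without LOS library 3.

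**Figure D3:**
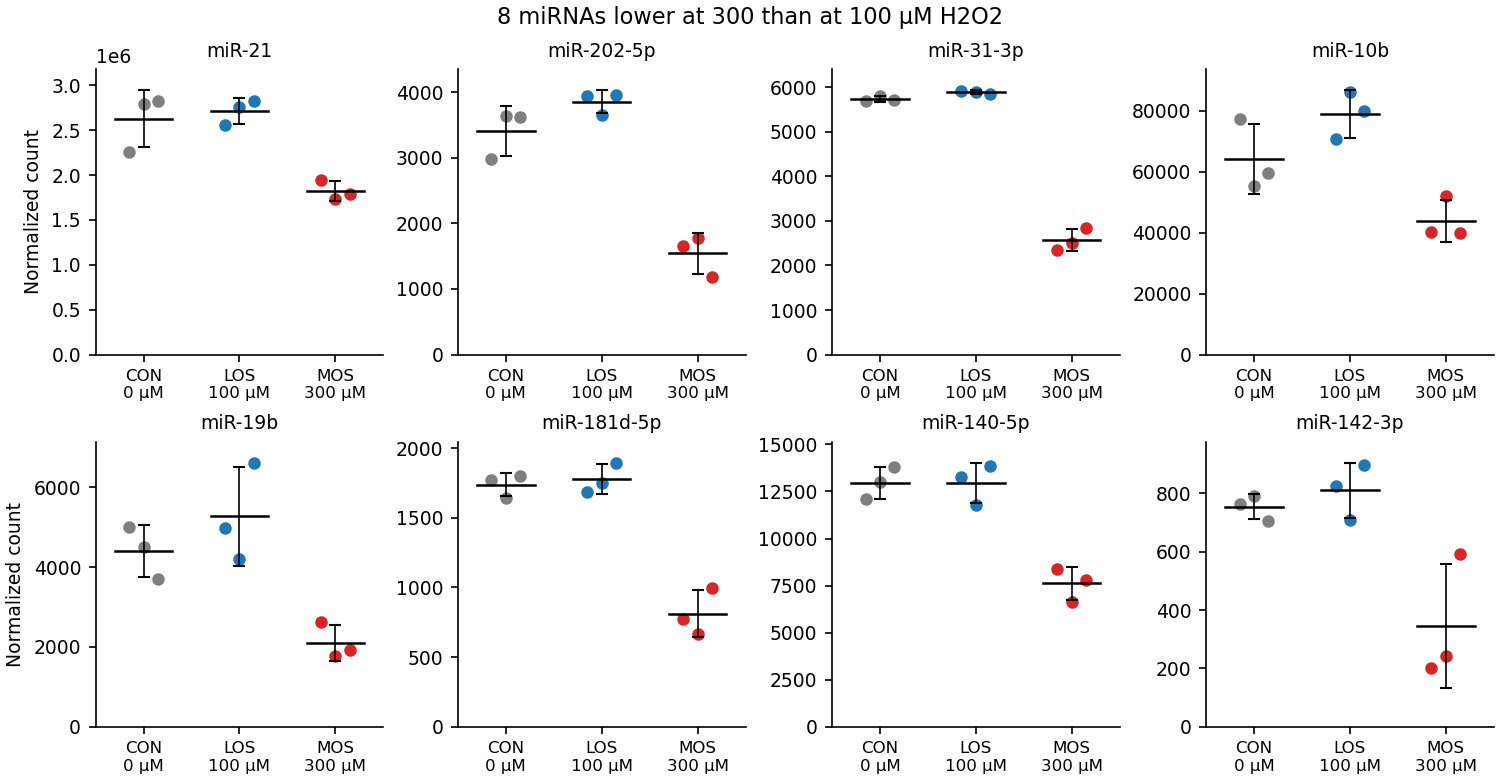
Normalized counts per library (points), means (bars) and SD (whiskers, n = 3) for CON, LOS and MOS in 8 miRNAs that were lower at 300 than at 100 μM H2O2. In every panel the 3 MOS points lie under the 3 LOS points, and for miR-142-3p the third MOS point (590.5) lies near the lowest LOS point (709).

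miR-142-3p, a miRNA of blood cells, fell from 824, 709 and 898 in LOS to 202, 243 and 590.5 in MOS (log2 -1.39, SE 0.38, adjusted p = 0.0331). The MOS values did not overlap LOS but differed from each other, with library 3 the highest. The call was lost with equal totals (adjusted p = 0.0575) and without LOS library 1, 2 or 3 or MOS library 1 or 2. The other leukocyte miRNAs were not called in the fit of the 6 libraries, with miR-223 at 359.8, 338 and 308 in LOS and 96.01, 278 and 114 in MOS, miR-142-5p at 1186, 1333 and 1588 in LOS and 679.6, 946 and 1345 in MOS, and miR-150 at 19.7, 32.2 and 27.5 in LOS and 27.4, 53.5 and 48.8 in MOS. miR-223 missed the threshold there (log2 -1.20, adjusted p = 0.0566) and was called lower with all 9 libraries in one fit (adjusted p = 0.0243), with a spread per group, with 10 added to each value and without MOS library 2. The 4 entries of the leukocyte list summed to 2389 to 2821 in LOS and 1005 to 2098 in MOS, and the sums for the stroma and theca list were between 229 and 334 in LOS and between 274 and 567 in MOS. The sum of the red blood cell entries was 254 to 283 in the LOS libraries and 294 to 775 in MOS. The part of such cells in the results was not tested. In bulk libraries fewer cells of a type and less RNA per cell cannot be told apart.

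Among abundant miRNAs miR-146a-5p rose, an NF-kappaB-induced miRNA that dampens innate immune signalling. It was at 2605, 2457 and 2624 in CON, 2137, 2234 and 2476 in LOS and 5829, 7671 and 6107 in MOS. LOS and CON overlapped and every MOS value was more than 2-fold any of them, with a log2 fold change over LOS of 1.51 (SE 0.14, adjusted p = 0.000532). All 3 tested miR-146a entries rose, beside 17.2% of all entries. By name they are forms of the same 5p strand that differ at the 3′ end, so they are not separate miRNAs. miR-221 and miR-222, which share a seed and target the cell cycle inhibitor p27, also rose. miR-221 was at 25564, 25084 and 24896 in LOS and 51203, 44274 and 42543 in MOS (log2 0.86, SE 0.11, adjusted p = 0.00124). miR-222 was at 11528, 8826 and 10799.9 in LOS and 22494, 18165 and 14216 in MOS (log2 0.80, SE 0.19, adjusted p = 0.0191), a call that was lost without LOS library 2 or 3 or MOS library 2.

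The most abundant entry to rise was miR-22-3p, at 110808, 117576 and 127613 in LOS and 214016, 187986 and 161809 in MOS (log2 0.66, SE 0.13, adjusted p = 0.00973), a call that was lost without MOS library 2. From the imprinted DLK1-DIO3 cluster, a large group of miRNAs expressed together from the maternal allele, 9 of 53 tested entries rose and none fell, with 15 and 1 at an unadjusted p under 0.05 and 14 and 0 with voom. They included miR-127 (1469.9, 1658 and 1504 in LOS, 2128, 2325 and 2229.8 in MOS), miR-136-3p (198, 176 and 249 in LOS, 384, 543 and 497 in MOS) and miR-758 (282, 309 and 308 in LOS, 481, 477 and 587 in MOS), and none of them overlapped between doses. Their log2 fold changes were 0.53 (SE 0.12), 1.19 (SE 0.21) and 0.77 (SE 0.15), with adjusted p of 0.0157, 0.00569 and 0.0108. The median of the 53 was 0.28, beside 0.09 over all entries, and 39 of them were positive, beside 408 of all 733. The share that rose was 17.0%, beside 17.2% of all entries and 8.80% of the 659 that did not pass the lower limit only through MOS, as none of the 53 did. With MOS library 3 left out 10 of the 53 rose and 3 fell, beside 199 and 122 of all 733. Of all 733 entries 173 rose and 95 fell at an unadjusted p under 0.05, and 176 and 30 with voom. The call of miR-127 was lost without LOS library 1 or 3, and that of miR-758 without LOS library 1.

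Entries called in opposite directions shared 2 seeds. miR-146b, which differs from miR-146a outside the seed, was at 765, 589 and 727 in CON, 1005, 1063 and 1234 in LOS and 687, 840.0 and 786 in MOS. It fell at 300 μM (log2 -0.51, SE 0.15, adjusted p = 0.0403) while miR-146a-5p rose, and the ratio of miR-146a-5p to miR-146b went from 2.08 ± 0.06 in LOS to 8.46 ± 0.68 in MOS, against 3.73 ± 0.40 in CON (mean ± SD, n = 3). The call of miR-146b was lost without LOS library 1, 2 or 3 or MOS library 1 or 2.

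The seed of miR-34 and miR-449, known for p53 responses and for multiciliated cells, showed the same split. miR-449a rose from 37.7, 32.6 and 45.1 in LOS to 204, 174 and 65.6 in MOS (log2 1.77, SE 0.43, adjusted p = 0.0208). miR-34c was at 518, 609.6 and 535 in LOS and 212, 178 and 377 in MOS, and miR-34b-5p at 62.6, 86.5 and 80.7 in LOS and 12.5, 12.7 and 27.1 in MOS. Both fell, by log2 fold changes of -1.19 (SE 0.28) and -2.15 (SE 0.35), with adjusted p of 0.0191 and 0.00522, and miR-34b-3p by -2.15 (SE 0.56, adjusted p = 0.0297). In each of these entries MOS library 3 was the MOS library nearest to LOS. The calls of miR-449a, miR-34c and miR-34b-3p were lost without LOS library 1, 2 or 3 or MOS library 2 (for miR-34b-3p also MOS library 1), and that of miR-34b-5p held whichever library was left out. miR-34a, by far the most abundant with this seed, was at 56028, 49398 and 56248 in LOS and 50409, 47498 and 58451 in MOS, which overlapped (log2 -0.05, SE 0.12). Over the whole p53-responsive list, 6 of 29 tested entries fell and 1 rose, with a median of -0.38, beside 7.91% lower and 17.2% higher of all entries. The 1 rise passed the lower limit only through MOS. Of the other 28, 6 fell and none rose, beside 8.80% each way of the 659 entries that did not pass through MOS alone. With equal totals the list had 4 falls and 2 rises (median -0.14), beside 31 and 189 of all 733 entries (median 0.33). It had 3 and 2 with voom, beside 30 and 176 of all 733. Without MOS library 3 it had 11 and 4, beside 122 and 199 of all 733.

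**Figure D4:**
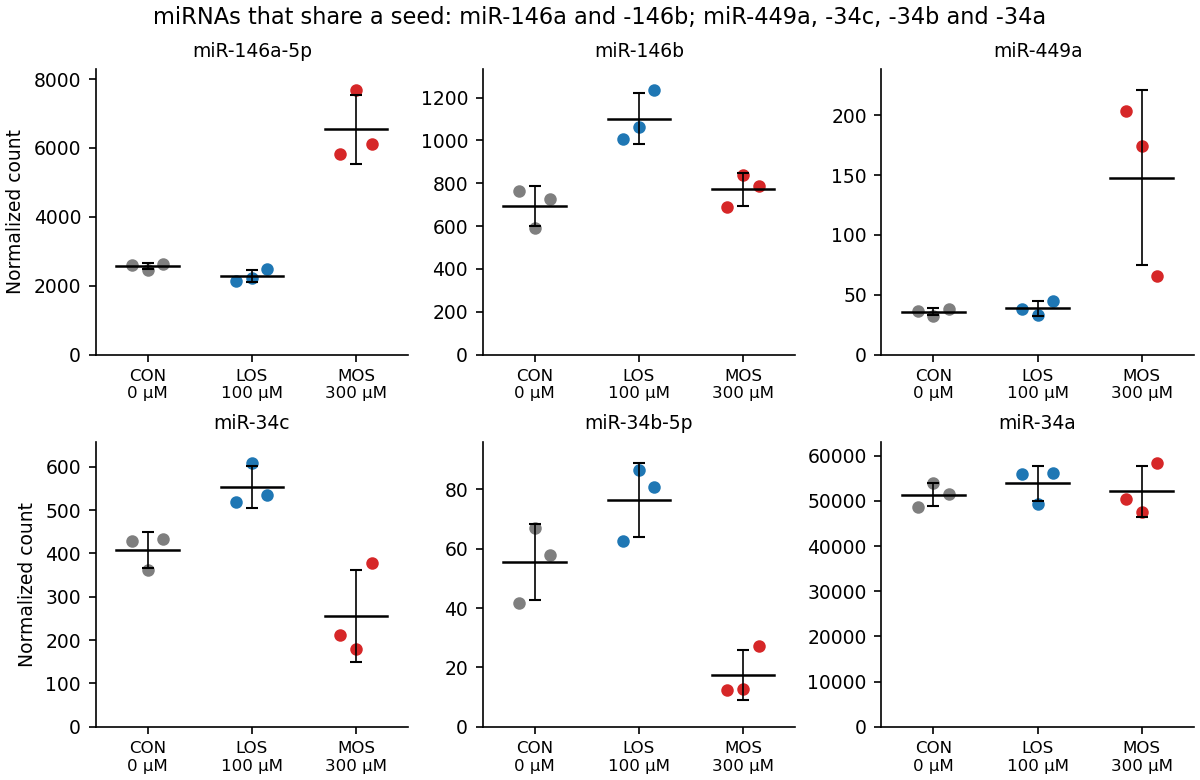
Normalized counts per library (points), means (bars) and SD (whiskers, n = 3) for miR-146a-5p and miR-146b, which share a seed, and for miR-449a, miR-34c, miR-34b-5p and miR-34a, which share another. miR-146a-5p and miR-449a are highest in MOS, miR-146b, miR-34c and miR-34b-5p are higher in LOS than in MOS, and the groups of miR-34a overlap.

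Opposite arms of some hairpins also parted. The pairs were chosen after their values were seen, and their ratios are a description. By name, miR-222 was the one hairpin with an arm called in each direction, and the ratio of miR-222 to miR-222-5p was 164 ± 16.6 in CON, 27.4 ± 2.82 in LOS and 95.1 ± 26.95 in MOS. For miR-27a the ratio of the major to the minor arm was 469 ± 15.96 in CON, 154 ± 22.9 in LOS and 360 ± 10.9 in MOS, while miR-27a itself was at 81273, 77999 and 93131 in LOS and 88452, 95789 and 88494 in MOS (log2 0.11, SE 0.11, adjusted p = 0.485). miR-24-1-5p, from the same cluster as miR-27a, fell (log2 -0.72, SE 0.12, adjusted p = 0.00569), while miR-24-3p was not called (log2 0.05, SE 0.10, adjusted p = 0.781). The genes miR-24-1 and miR-24-2 lie in different clusters, and miR-24-2-5p, a separate entry, was not called. miR-24-3p carries no hairpin number, so its values are not tied to 1 hairpin and do not show that the arms of miR-24-1 parted. The ratio of miR-21-3p to miR-21 was 0.00197 ± 0.000395 in LOS and 0.00654 ± 0.00293 in MOS, although miR-21-3p alone was not called (1.07, SE 0.34, adjusted p = 0.0559). In each of these ratios LOS and MOS did not overlap, which for miR-222 follows from its arms being called in opposite directions. The ratio of miR-142-3p to miR-142-5p, at 0.597 ± 0.086 in LOS and 0.331 ± 0.096 in MOS, did not overlap either. For 3 further hairpins the ratio of the arms overlapped between doses, at 137 ± 34.8 in LOS and 129 ± 48.3 in MOS for miR-202-5p over miR-202-3p, 21.4 ± 7.15 and 20.9 ± 2.96 for miR-139-5p over miR-139-3p, and 4.55 ± 0.98 and 3.71 ± 1.07 for miR-145-5p over miR-145-3p.

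Length set the rises apart from the falls. Of the 165 tested entries of 18 to 20 nt, 86 rose (52.1%) and none fell. Of the 568 entries of 21 to 26 nt, 40 rose (7.04%) and 58 fell (10.2%). At an unadjusted p under 0.05 the short entries held 0 falls, beside 95 among the longer ones. With voom they held 0, beside 30 among the longer ones. Of the short entries 60 passed the lower limit only through MOS and had to differ, 58 of them called higher, against 14 of the longer ones, 10 of them called higher. Of the 105 other short entries 28 rose and none fell, and of the 554 other longer ones 30 rose and 58 fell. Some entries carry identical values, and the 165 short ones held 121 distinct sets of values and their 86 rises 55. The 568 longer ones held 530, their 40 rises 37 and their 58 falls 57. At 19 nt 41 of 69 rose, and at 24 nt 9 of 37 fell. Short entries that were at 10 or more in every LOS library still rose in 22 of 87 cases and fell in none, beside 29 and 58 of 528 longer ones. Summed over all entries, those of 18 to 20 nt took 0.211 to 0.278% of the counts in LOS and 0.488 to 0.732% in MOS. Among the longer entries the median GC content was 40.9% in the falls, 47.6% in the rises and 47.6% in all.

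**Figure D5:**
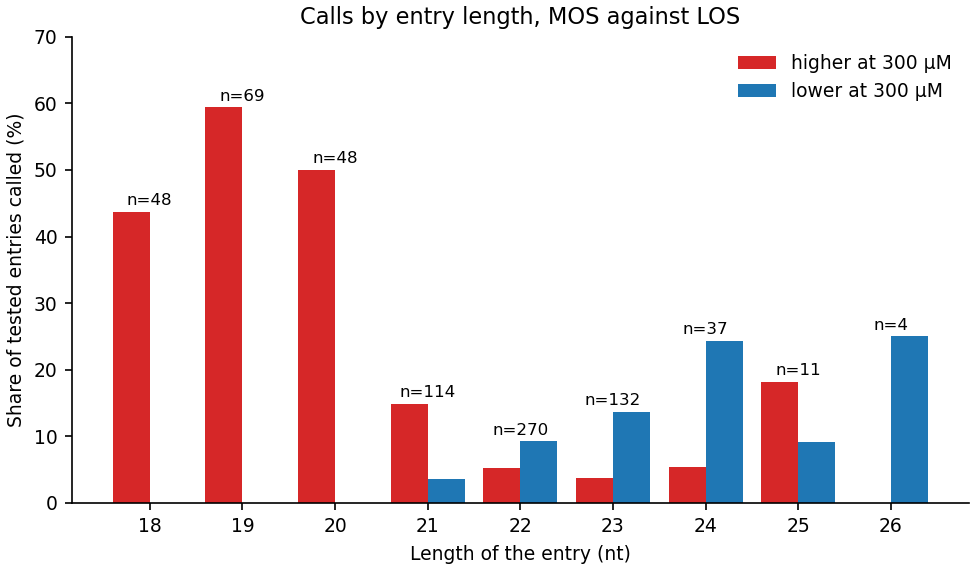
Share of tested entries called higher (red) or lower (blue) at 300 than at 100 μM H2O2, by entry length in nt, with the number tested above each pair of bars. Lengths of 18 to 20 nt have no blue bar and red bars of 43.8 to 59.4%, which include 58 rises that passed the lower limit only through MOS. Entries with identical values are each counted.

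Most of the largest rises were short, GC-rich entries with names from other species or from predicted hairpins. The miR-6240 entry, named after a mouse miRNA, was at 119, 94.6 and 96.6 in CON, 197, 181 and 182 in LOS and 3201, 3788 and 3189 in MOS (log2 4.17, SE 0.14, adjusted p = 3.41e-06). The miR-4332 entry was at 19.7, 16.96 and 19.9 in LOS and 914, 1373 and 1904 in MOS (log2 6.08, SE 0.28, adjusted p = 1.26e-05). Both were above CON at 100 μM as well, and both had MOS values far above every LOS value.

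All 13 miR-6240 entries, all 11 miR-4332 entries and all 12 miR-2904 entries tested rose, as did 7 of 14 miR-1260 entries, beside 17.2% of all entries. Of these 8, 9, 12 and 1 passed the lower limit only through MOS, which leaves no miR-2904 entry, and of the others 5 of 5 miR-6240, 2 of 2 miR-4332 and 7 of 13 miR-1260 entries rose, beside 8.80% of the 659 entries that did not pass through MOS alone. The list of entries with names that other RNA classes can produce, such as ribosomal and transfer RNA fragments, held 104 tested entries. Of these 67 rose and none fell, with a median of 2.09, beside 17.2% higher, 7.91% lower and a median of 0.09 over all entries. An unadjusted p under 0.05 gave 69 rises and 0 falls, beside 173 and 95 of all 733 entries. Voom gave 67 and 0, beside 176 and 30 of all 733. The 104 entries hold 56 distinct sets of values, so that many are not separate observations. Of the 104, 49 passed the lower limit only through MOS and had to differ, and of the other 55, 19 rose (34.5%) and none fell, with a median of 0.48. Whether these sequences come from miRNA hairpins was not tested. In all, the 126 rises held 90 distinct sets of values and the 58 falls 57.

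The miR-4787 entry was at 0 in all CON and LOS libraries and at 196, 186 and 163 in MOS. The candidate PC-5p-4753 was at 0, 1.70 and 0 in LOS and 269, 282 and 134 in MOS, and PC-5p-22188 at 0 in all LOS libraries and 88.5, 139 and 119 in MOS. Such entries have no fold change, since their fitted value depends on the count of 1 added to each. Listed at 0 in all LOS libraries were 21 entries, all called higher, and 74 entries passed the lower limit only through MOS, of which 68 were called higher and had to differ. Only 6 entries passed only through LOS, 1 of them called lower, PC-3p-10435. Among the 653 entries at 10 or more in at least 1 library of each dose, 58 rose and 57 fell.

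Some families held no call. At other settings the counts of families and lists below stand beside those of all 733 entries. These were 95 falls and 173 rises at an unadjusted p under 0.05, and 30 and 176 with voom. With equal totals they were 31 and 189, with all 9 libraries in one fit 77 and 143, and 122 and 199 without MOS library 3. With equal totals the median of the same 733 entries went from 0.09 to 0.33. None of the 24 tested let-7 entries, the 7 miR-29 entries or the 9 entries of the miR-130, miR-301 and miR-454 family was called in either direction by limma, with medians of -0.01, -0.53 and 0.26. At an equal total per library 7 let-7 entries, 1 miR-29 entry and 1 of the miR-130 family rose and none fell. At an unadjusted p under 0.05 these families held 2, 2 and 2 entries, and with voom 4, 1 and 1. Without MOS library 3 let-7 had 2 rises and 2 falls, miR-29 4 falls, and the miR-130 family 4 rises and 1 fall, and with all 9 libraries in one fit 1 let-7 entry fell. Counts of the main comparison that follow stand beside 7.91% lower and 17.2% higher over all entries. Over the 659 entries that did not pass the lower limit only through MOS, the share was 8.80% each way. Counts for the other families at an adjusted p under 0.05 were 2 falls of 11 for miR-30, 2 falls of 5 for miR-26, 2 rises of 6 for miR-148 and miR-152, 1 rise of 15 for the miR-15 and miR-16 seed, 1 rise of 14 for the miR-424 and miR-503 cluster, and 3 falls of 14 for miR-23, miR-27 and miR-24. The medians of miR-30 and of miR-23, miR-27 and miR-24 were -0.23 and -0.23 in the deposited scale and 0.01 and 0.01 with equal totals, and the sign of these small medians turned with the scale. The granulosa and follicle list had 16 falls and 7 rises among 78 (10 and 14 with equal totals, which turned its median from -0.14 to 0.10), and the oxidative stress and hypoxia list 12 falls and 7 rises among 67 (8 and 15 with equal totals, with its median going from 0.05 to 0.29). With MOS library 3 left out these became 26 and 19, and 19 and 20. Of the remaining lists, the epithelial one had 2 falls and 1 rise among 10, the neuronal one 1 and 1 among 11, the muscle one 1 fall among 3, miR-143 and miR-145 2 falls among 4, miR-10 1 fall among 3, the miR-34 family 3 falls and 2 rises among 9 (the rises being 2 entries of miR-449a with identical values), miR-221 and miR-222 1 fall and 2 rises among 4, and the miR-183 cluster 2 falls among 3. The red blood cell list had 1 rise among 4, miR-144. None of the 5 liver and gut, 4 stroma and theca or 2 endothelial entries was called by limma, with 3, 1 and 0 at an unadjusted p under 0.05 and 1, 1 and 0 with voom. With equal totals 2, 1 and 0 of them rose, and with all 9 libraries in one fit 1 liver and gut entry rose. Without MOS library 3 the liver and gut list had 2 rises and 2 falls, the stroma and theca list 2 rises and the endothelial list 1 fall.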

How the data were processed

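Small RNA from 9 libraries was measured with an Illumina TruSeq kit. The authors cleaned and named the reads in ACGT101-miR against miRBase. An entry can therefore differ from the miRNA it is named after at either end or by 1 base, every entry is 18 to 26 nt long, and reads that matched other RNA classes had been taken out. The deposited values are a signal, normalized counts, 1 per entry and library. How they were normalized and the genome build are not given in the sources used here, so no coordinates are printed. All per-sample columns were used. Reads were estimated as the total over the step between values, whose multiples (within 0.01) covered 98.3 to 99.9% of values under 400.

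Entries with at least 10 in at least 3 of the 6 LOS and MOS libraries were fitted with limma 3.58.1 in R 4.3.3 (trend, log2 of the value plus 1), each pair of groups alone, with Benjamini-Hochberg adjustment and a call under 0.05. All p-values named as adjusted come from it, and log2 fold changes are on that scale, which understates changes of low entries. On simulated data the MOS against LOS fit recovered 93.8% of changes of 1 log2 unit, with 4.50% false calls. The simulation gave every entry and both groups the same set spread beyond sampling noise, and as many rises as falls. That spread was not estimated from these libraries. The real MOS libraries differed more from each other than the LOS libraries did. The share of false calls and the share of changes recovered in the real data are therefore not known from the simulation. Named entries were the 15 largest rises and falls, the 8 most abundant calls per direction, all entries of the rise-then-lost class with their opposite arms, up to 4 per list and the 5 highest means. Further entries chosen after their values were seen are miR-132, miR-212, miR-29b-1-5p, miR-141-3p, miR-224, miR-1248, miR-146b, miR-34a, miR-31, miR-590, miR-21-3p, miR-24-3p and the entries below any CON value at one dose and above it at the other. The members and the 29 lists were chosen with earlier results of these data known. Alternatives were another pooling of groups, trend, weights, scale, pseudocount, filter, block, single libraries left out, and entries merged or left out. Voom on estimated reads and another filter for LOS against CON were added after seeing the data. Neighbouring genes were read from RefSeq (Sscrofa11.1). Summaries used Python 3.11.15.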

Additional observations from a re-analysis of the deposited data

Results flagged for a closer look

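In 9 of the 733 entries every LOS value lay above every CON value and every MOS value below every CON value. Each had a call between doses, so that the doses lay on opposite sides of untreated cells. Their log2 fold changes at 300 over 100 μM were -1.34 for miR-202-5p, -1.20 for miR-31-3p, -0.92 for miR-103a-2-5p and -0.92 for miR-335. They were -0.84 for miR-365a-5p, -0.80 for miR-362 and -0.68 for miR-455-5p. For 2 entries with identical values, named after goat and cow forms of miR-374a, the value was -0.71. The pig-named miR-374a-5p, at -0.46, was not among the 9. None of the 9 was called at 100 μM against CON, and miR-31-3p lay only just above CON there, at 5928, 5902 and 5845 against 5696, 5809 and 5713. miR-103a-2-5p was at 91.00, 95.5 and 112 in CON, 139, 124 and 136 in LOS and 68.6, 54.8 and 89.9 in MOS. The calls between doses of miR-202-5p, miR-31-3p and miR-335 held whichever library was left out. That of miR-103a-2-5p was lost without LOS library 1, 2 or 3 or MOS library 1 or 2. That of miR-365a-5p was lost without LOS library 1, 2 or 3 or MOS library 2. Those of the 2 goat- and cow-named miR-374a entries and miR-455-5p were lost without LOS library 2 or 3, and that of miR-362 without LOS library 3. Beside these 9, the reverse order held in 7 entries, given next. Over all 733 entries, LOS lay entirely apart from CON in 21% and MOS entirely apart from LOS in 41.5%. Whether the effects of the doses differ was tested here only by the comparison of MOS with LOS.

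Another 7 of the 733 entries lay below every CON value at 100 μM and above every CON value at 300 μM. They were miR-6529a (0.93), miR-128 (0.42), miR-380-3p (0.61), a 20 nt form of miR-339 with a substitution (1.31), miR-2478 (1.10), miR-4508 (2.35) and miR-2137 (3.82). miR-6529a was at 3846, 4589 and 4317 in CON, 3551, 3482 and 3060.3 in LOS and 6792, 6606 and 5781 in MOS. None of the 7 was called at 100 μM against CON. The calls between doses of miR-6529a and miR-4508 held whichever library was left out, those of miR-128, miR-380-3p and miR-2478 were lost without LOS library 1, 2 or 3 or MOS library 1 or 2, that of miR-339 without LOS library 1, 2 or 3 or MOS library 1 and that of miR-2137 without MOS library 2.

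Outside the entries compared, 612 stayed below the limit of the rule. Of these, 34 were above 0 in all 3 MOS libraries and at 0 in the other 6, while 4 showed the same for LOS alone. Among the 34, 31 were 18 to 20 nt long. They were picked by being listed in MOS alone, and the share of such lengths among the 612 was not counted. The 31 are therefore only a description. The 34 held 26 distinct sets of values and no value above 43.6.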

How the results depend on the processing

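The main comparison gave 126 higher and 58 lower entries, 31 rises at 100 μM and 5 rises that were lost. Leaving out single libraries gave 73 to 199 higher (73 without LOS library 3, 79 and 199 without MOS libraries 2 and 3, 80 without LOS library 2), 16 to 122 lower (24, 20 and 16 without LOS libraries 1, 2 and 3, 27 and 122 without MOS libraries 2 and 3), 10 to 31 rises (15, 13 and 17 without CON libraries 1, 2 and 3, and 10, 14 and 13 without LOS libraries 1, 2 and 3) and 2 to 9 lost rises. Equal totals gave 195 higher, 31 lower, 19 rises and 3 lost. Voom on estimated reads, added after seeing the data, gave 176 higher and 30 lower. Leaving out entries of 18 to 20 nt gave 35 higher and 50 lower, 41.2% higher of the calls against 68.5%. A limit of 50 gave 58 higher, 52 lower and 8 lost rises, and no limit 18 rises. All 9 libraries in one fit gave 19 rises with either filter. LOS against CON on its own filter, also added, gave 37 rises and 9 lost. Named entries kept their sign wherever called in the main comparison, and miR-129a-3p, not called there, ranged from -0.18 to 0.28 with single libraries left out, the latter without MOS replicate 3 (adjusted p = 0.0463).

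Same-numbered LOS and MOS libraries did not deviate together (correlations of -0.06, -0.09 and -0.00). With 3 libraries per group this cannot tell whether libraries of the same number shared an animal or a batch. The CON libraries were not checked in this way. With a replicate block 103 entries were higher, 35 lower, 6 rises and 2 lost rises. Fits without 1 library have fewer samples. Limits are 3 libraries per dose, MOS depth below LOS depth, and values of 0 that stand for under about 4 reads. The edgeR and DESeq2 alternatives were not run, since the table holds normalized values.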
